A study of Mus musculus with 6 samples.

Results

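The genes described here are the receptor-regulated SMAD genes and Smad4, 6 of the 17039 genes on a mouse promoter array: Smad1, Smad5, Smad9, Smad2, Smad3 and Smad4. Their members on the array were all experimental probes whose annotated gene name is one of these genes or one of its older Madh names, which gave 190 of 474380 probes. The question is whether SMAD proteins sit on the promoters of their own genes. Chromatin came from R1 cells, an embryonic stem cell line of the mouse, which were undifferentiated and kept without feeder cells in medium with knockout serum replacement and leukemia inhibitory factor. No genetic change or added ligand is given for them, and they were cross-linked with formaldehyde and sonicated. DNA was recovered with an antibody against SMAD1/5, against SMAD2 or against SMAD4 (the immunoprecipitate, Cy5), and each was hybridised beside its own whole cell extract (the input, Cy3). Per the series' design text the antibodies were raised against the linker of human SMAD1, of SMAD2 and of SMAD4, the stretch between the DNA-binding and the protein-binding domain. None was raised against SMAD3 or SMAD9. Each antibody was used in 1 biological replicate on 2 arrays that carry different probes, so no value has a replicate and no p-value is given. The arrays measured DNA, so the cells could not be checked against expressed markers.

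SMAD proteins carry signals of the TGF-beta family from the cell surface to chromatin. SMAD1, SMAD5 and SMAD9 are phosphorylated by BMP receptors, and SMAD2 and SMAD3 by the receptors of Activin, Nodal and TGF-beta. SMAD4 is not phosphorylated by these receptors and joins the complexes of both branches. In mouse embryonic stem cells BMP signals are known to help leukemia inhibitory factor to hold the undifferentiated state, and Nodal signals are active in these cells too.

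Signal near the start sites is a subject of the results. The promoter sequences set out here show how RefSeq start sites of 4 members look in terms of SMAD-type letters. They are the 250 bases upstream of a RefSeq start site in build GRCm38.p6. Of the 6 members, 4 matched an entry there, and Smad2 and Smad4 did not. The motifs counted on both strands were CAGAC, the shorter GTCT (read as AGAC on the other strand, so that CAGAC contains it), the palindrome GTCTAGAC, the GC-rich GGCGCC, and the composite BMP response element, in which GGCGCC is joined to GTCT over a short gap of any letters. Capitals mark GTCT or AGAC and GGCGCC. Smad5 has 3 annotated start sites, and the second is shown, chosen after the matches were seen because it is the one that holds GGCGCC, at chr13:56702802-56703051 on the plus strand. The others are Smad1 at chr8:79399429-79399678 on the minus strand, Smad9 at chr3:54755332-54755581 on the plus strand and Smad3 at chr9:63757995-63758244 on the minus strand.
Smad1: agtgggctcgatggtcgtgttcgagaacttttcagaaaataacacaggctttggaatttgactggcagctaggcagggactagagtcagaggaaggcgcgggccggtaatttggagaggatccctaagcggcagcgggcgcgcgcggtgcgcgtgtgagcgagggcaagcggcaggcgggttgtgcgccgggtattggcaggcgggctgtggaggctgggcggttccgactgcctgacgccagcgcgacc
Smad5: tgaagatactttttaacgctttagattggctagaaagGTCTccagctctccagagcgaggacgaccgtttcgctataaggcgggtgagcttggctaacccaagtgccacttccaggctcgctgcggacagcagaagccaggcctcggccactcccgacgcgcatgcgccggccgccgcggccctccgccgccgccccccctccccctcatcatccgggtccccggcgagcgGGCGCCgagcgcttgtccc
Smad9: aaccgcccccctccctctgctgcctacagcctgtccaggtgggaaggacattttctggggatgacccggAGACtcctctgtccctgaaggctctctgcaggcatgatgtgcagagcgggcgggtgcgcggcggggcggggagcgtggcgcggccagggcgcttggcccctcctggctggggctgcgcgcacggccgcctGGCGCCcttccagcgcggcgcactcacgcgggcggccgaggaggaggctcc
Smad3: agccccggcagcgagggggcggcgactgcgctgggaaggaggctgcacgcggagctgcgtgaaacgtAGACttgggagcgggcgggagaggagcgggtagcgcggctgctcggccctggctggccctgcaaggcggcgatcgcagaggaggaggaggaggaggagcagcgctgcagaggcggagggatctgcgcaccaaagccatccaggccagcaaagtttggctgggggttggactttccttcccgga
Smad1, the gene of a BMP-branch SMAD, held 0 matches of any of these motifs in its 250 bases. The Smad5 stretch held 1 GTCT and 1 GGCGCC, that of Smad9 likewise 1 GTCT and 1 GGCGCC, and that of Smad3 1 GTCT. None of the 4 held CAGAC, GTCTAGAC or the composite, and the other Smad5 start sites, which are not printed, held 0 GGCGCC, with 1 GTCT at the first and 2 GTCT and 1 CAGAC at the third. Among 32841 promoters of the same length, 82.9% held GTCT, 42.2% CAGAC, 9.59% GGCGCC, 0.167% GTCTAGAC and 0.07% the composite. The share of G and C in the stretches shown is 63.6% in Smad1, 66.4% in Smad5, 73.2% in Smad9 and 69.2% in Smad3, against a median of 52.4% over these promoters. The probe positions of the array carry no build name and differ from these coordinates, so the letters were not laid against single probes. The start sites annotated on the array were likewise not matched to these RefSeq start sites.

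The 6 genes are tiled from about 5.5 kb upstream to about 2.5 kb inside the gene. In the array's own coordinates, Smad1 has 30 probes at chr8:77937355-77945170 and Smad9 has 29 at chr3:54879262-54887307, both on array 1. On array 2, Smad5 has 35 probes at chr13:55789371-55797258, Smad2 has 35 at chr18:76633137-76640529, Smad3 has 36 at chr9:63783731-63791906 and Smad4 has 25 at chr18:74095828-74103602. The annotation places 115 of the 190 probes in promoters and 75 inside the genes, and no member shares a divergent promoter with another gene. For each probe the log2 ratio of immunoprecipitate over input was taken and centred on the array's median, so that 0 is the typical probe. A window is the mean of the probes within 500 bp, and its z is the distance from the array's median window in robust SDs. The same SD serves windows of few and of many probes, so windows of few probes reach high or low z more easily. The highest window of a gene also tends to rise with its number of probes, and percentiles of peak z were not adjusted for either. An enriched gene is one whose highest window reaches a z of 4 or more while 2 or more of its probes exceed the array's 95th percentile, and a low gene meets the mirrored rule.

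The arrays differ in how much signal they carry. The input of 27.5% and 12.9% of all probes was replaced by the scanner software's surrogate for spots near background on SMAD1/5 arrays 1 and 2, against 11.4% and 13.8% with SMAD2 and 0.376% and 0.338% with SMAD4. A z of 4 stands at 24.4-fold and 18.0-fold with SMAD1/5, at 4.90-fold and 4.68-fold with SMAD2 and at 4.94-fold and 4.89-fold with SMAD4, and lower occupancy was not callable on these arrays. Among the 190 member probes the immunoprecipitate was a surrogate for 8 with SMAD1/5, 9 with SMAD2 and 0 with SMAD4, and the input for 28 with SMAD1/5, 26 with SMAD2 and 1 with SMAD4. No member probe was saturated.

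None of the 6 genes was called enriched with any of the 3 antibodies, and none was called low. With SMAD1/5 this was 0 of 6, where 0% of all 16725 genes were enriched and 2.62% low. With SMAD2 it was 0 of 6 against 0.0658% enriched and 0.335% low, and with SMAD4 0 of 6 against 2.49% enriched and 0.0478% low. At these shares of all genes a count of 0 among 6 is near the background for every antibody. At the lower height of z 2, the SMAD genes that reached it numbered 0 of 6 with SMAD1/5 (5.94% of all genes), 1 of 6 with SMAD2 (18.4%) and 3 of 6 with SMAD4 (40.1%). The median peak z, the highest window of a gene, was 1.16 for the SMAD genes and 1.26 for all genes with SMAD1/5, 1.30 and 1.35 with SMAD2, and 1.89 and 1.74 with SMAD4. Single genes were spread more widely than these medians, from percentile 3.33 to 83.9 of all genes with SMAD1/5, from 13.9 to 82.8 with SMAD2 and from 15.9 to 91.8 with SMAD4.

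**Figure D1:**
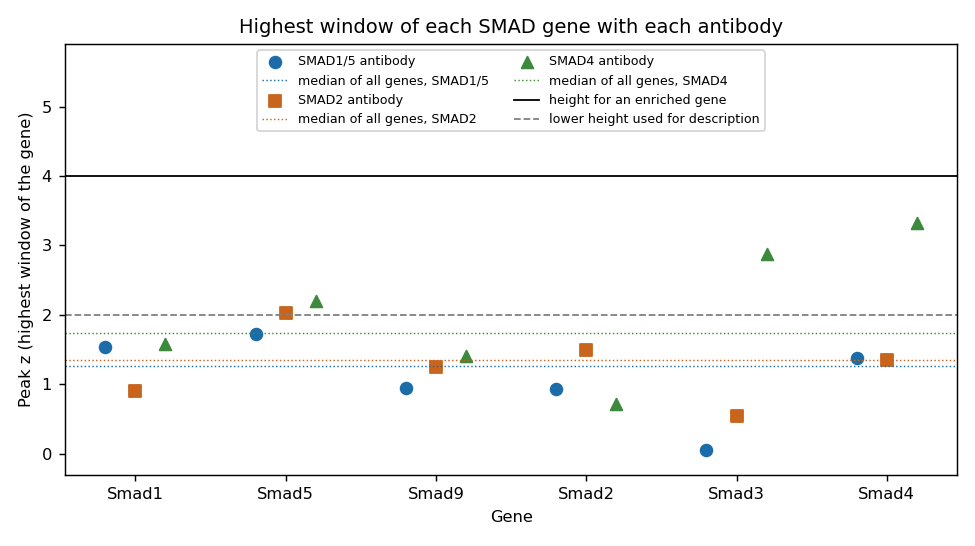
Peak z of each SMAD gene (x axis) with each antibody, as 1 point per gene and antibody, with the median of all genes as dotted lines in the antibody's colour. All 18 points lie under the z of 4 that defines an enriched gene, and Smad4 with the SMAD4 antibody, at 3.32, is the highest.

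The member with the highest window of all was Smad4 with the antibody against its own protein. Its peak z was 3.32, at percentile 91.8 of all genes, in a window centred at -5495 bp, the far upstream edge of its tiling. The 3 probes there had log2 ratios of 1.29, 2.38 and 2.07, a mean of 1.91 ± 0.56 (SD over probes), and 2 of them lay above the 95th percentile. The immunoprecipitate read 608, 1384 and 660 intensity units at these probes, against inputs of 264, 282 and 166. At the same 3 probes SMAD1/5 gave 0.71, -0.82 and -3.94, a window z of -1.18, which is the lowest window of Smad4 with that antibody. SMAD2 gave 0.10, -0.12 and -0.64 there, a z of -0.46. The window was thus high with 1 antibody and at or below the typical level with the others.

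Each channel of that window was also read alone, as its log2 level against the array's median. The SMAD4 immunoprecipitate lay at -0.20 and its input at -2.02. Set against the mean of the other antibodies at the same probes, the immunoprecipitate differed by -0.29 and the input by -3.07. With the mean input of the 3 antibodies in place of its own, the peak z of Smad4 with SMAD4 was 0.94. This was the lowest of 10 other settings, and the peak z stayed at 2 or more in 9 of them. It was 2.00 without the trend on the own input and 2.87 with normexp background correction. A second Smad4 probe, at -433 bp, had log2 ratios of 1.48 with SMAD1/5, 1.16 with SMAD2 and 2.37 with SMAD4. It was the 1 probe of the 190 above 1 with all 3 antibodies, with immunoprecipitate intensities of 3653, 1340 and 3246 against inputs of 958, 581 and 662. Its neighbours on either side read 3.098, 1.08 and 0.67 at -703 bp and -0.70, 0.52 and -0.32 at -282 bp, with SMAD1/5, SMAD2 and SMAD4 in that order. Of the 6 member probes above the 95th percentile with SMAD4, 4 belong to Smad4, 1 to Smad3 and 1 to Smad2.

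**Figure D2:**
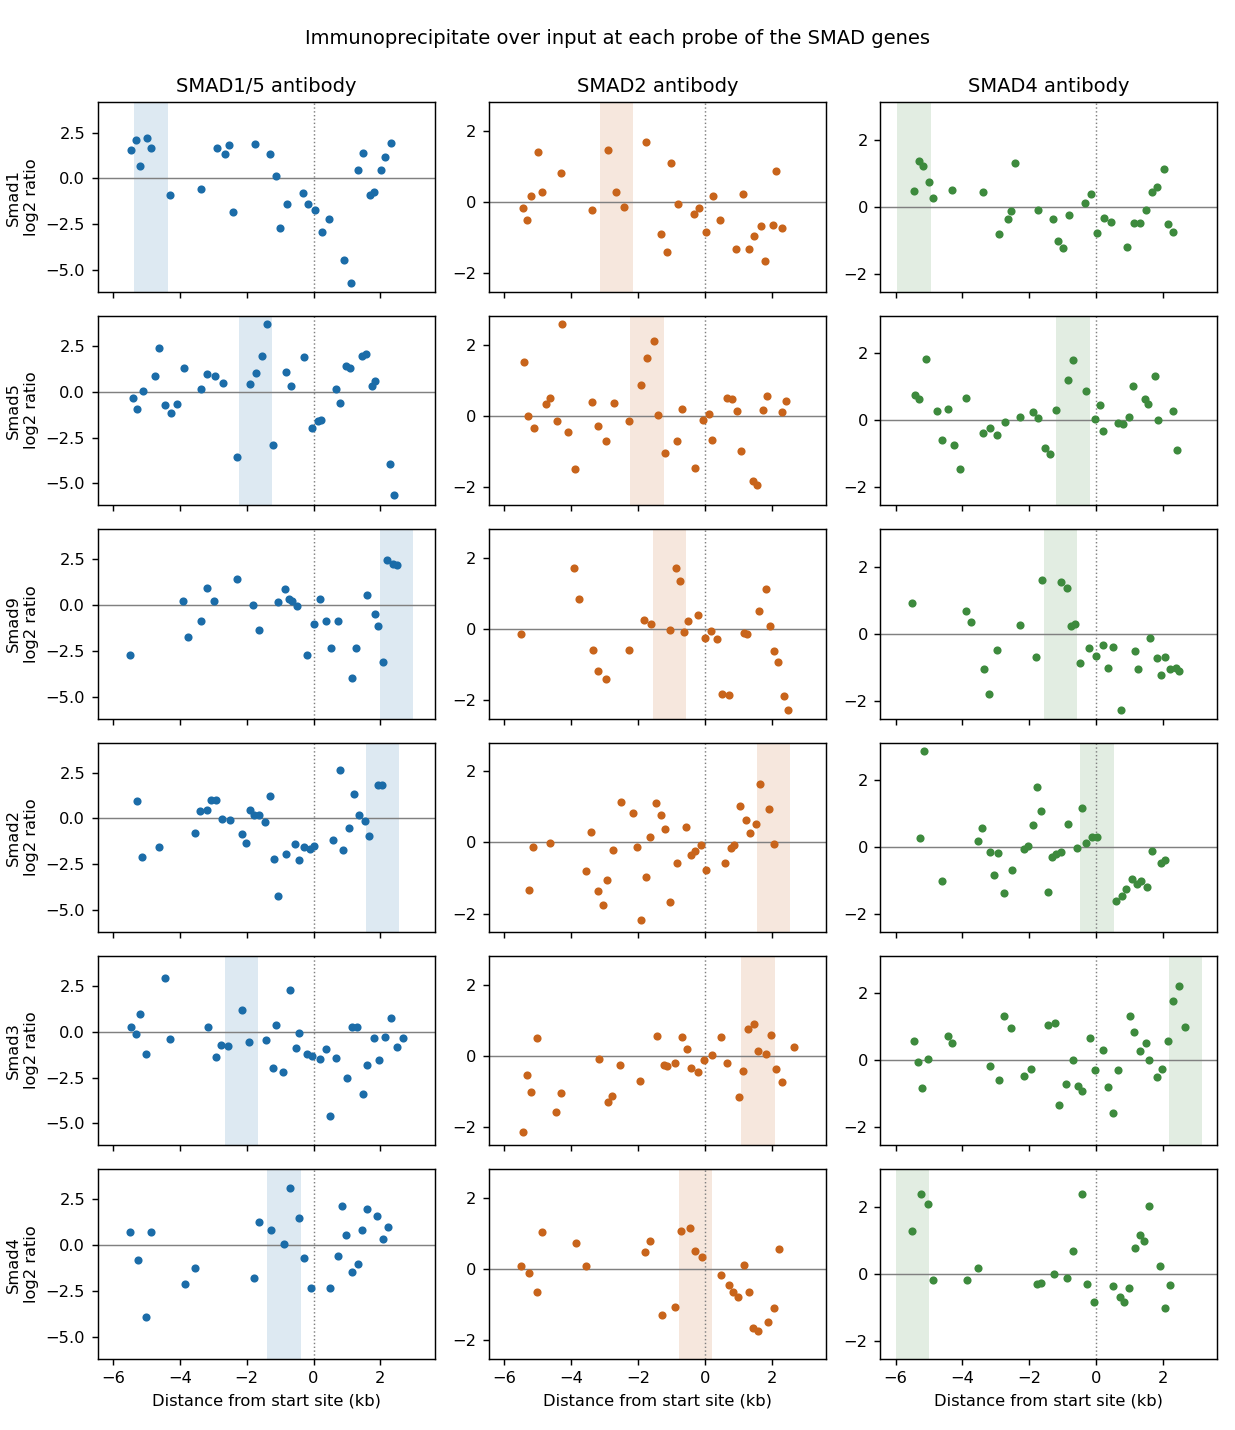
Log2 ratio of immunoprecipitate over input (y axis, own scale for each antibody) for every probe of the 6 genes against its distance from the annotated start site in kb (x axis), with the highest window of each gene shaded. High probes are scattered along the genes, and the start site itself (dotted line) falls in the shaded window only for Smad2 with SMAD4 and for Smad4 with SMAD2.

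Among the genes of the BMP branch, Smad5 had the highest peak z with SMAD1/5, 1.73, and its peak z of 2.03 was the highest of the 6 with SMAD2. Both lie in the same window, centred at -1729 bp, and the 3 antibodies did not move together in it. Its 4 probes had log2 ratios of 0.40, 1.03, 1.93 and 3.67 with SMAD1/5 (mean 1.76 ± 1.42), but 3 of their 4 inputs were surrogates. SMAD2 gave 0.87, 1.62, 2.09 and 0.02 (mean 1.15 ± 0.91) and no input surrogate. SMAD4 gave 0.24, 0.07 and -0.83 at the first 3 and its lowest value, -1.0004, at the fourth, a window z of -0.82. The immunoprecipitate of the window lay at -0.31 with SMAD1/5 and -0.25 with SMAD2, against inputs of -1.62 and -1.47, all as log2 levels against the array's median. Both immunoprecipitates were thus slightly below the median of their array and both inputs further below it. Smad5 passed a z of 2 with SMAD2 by little, and with normexp background correction its peak z was 1.24.

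With SMAD4 the highest window of Smad5 lay closer to the start, at -688 bp. Its 3 probes read 1.21, 1.79 and 0.88 (mean 1.29 ± 0.46, z 2.20), at percentile 66.4 of all genes, and the peak z stayed at 2 or more in 3 of 10 other settings, with a lowest value of 0.99 with probes within 1000 bp. Set against the other antibodies at these probes, the immunoprecipitate differed by 0.40 and the input by -0.77 on the log2 scale. SMAD1/5 had a z of 1.10 there and SMAD2 a z of -1.27. The inner end of Smad5 held its lowest window with SMAD1/5, which gave 0.60, -3.94 and -5.63 at the last 3 probes, a window z of -2.72 centred at 2300 bp. Immunoprecipitate intensities at the 2 lowest of these were 5607 and 2867 against inputs of 62953 and 103803. Set against the other antibodies, the immunoprecipitate of that window lay 0.12 log2 units higher and the input 3.62 higher.

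Smad1 peaked at its upstream edge with 2 of the antibodies. SMAD1/5 had a z of 1.54 at -4868 bp (mean 1.65 ± 0.69 over 4 probes, from 0.67 to 2.19), and SMAD4 had 1.58 at -5451 bp (0.95 ± 0.42 over 4 probes). SMAD2 reached only 0.91, at -2644 bp. Compared with the other antibodies at the same probes, the SMAD1/5 immunoprecipitate was 0.29 higher and its input differed by -0.07. These are small differences in both channels, and 0 of the 30 Smad1 probes passed the 95th percentile with SMAD1/5. Its lowest window with SMAD1/5 lay inside the gene at 925 bp, where the 4 probes read -2.19, -4.47, -5.73 and 0.48 (z -2.32). The input at the lowest of them was 61610 intensity units on the SMAD1/5 array, against 1005 with SMAD2 and 3518 with SMAD4.

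Smad9 encodes the third BMP-branch SMAD. It had a peak z of 0.94 with SMAD1/5, 1.25 with SMAD2 and 1.42 with SMAD4, at percentiles 27.4, 44.1 and 38.0 of all genes. The SMAD2 and SMAD4 peaks share a window at -1057 bp, with means of 0.74 ± 0.92 and 0.86 ± 0.69 over the same 4 probes. SMAD1/5 peaked instead at the inner end, at 2487 bp, where its probes read -3.11, 2.47, 2.24 and 2.18. Of all the highest and lowest windows of the SMAD genes, this one had the immunoprecipitate furthest from the other antibodies: that of SMAD1/5 lay 2.45 above the mean of the others and its input 0.97 above. The same window was the lowest of Smad9 with SMAD2 (z -2.58), with probes at -0.63, -0.92, -1.88 and -2.28, and had a z of -1.86 with SMAD4. The probe that went against the others with SMAD1/5, at -3.11, makes the window's SD 2.71 and holds its z under 1.

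Smad2 and Smad3 are the genes of the Activin and Nodal branch. Smad2 peaked at 2062 bp with both SMAD1/5 (z 0.93, mean 0.91 ± 1.61) and SMAD2 (z 1.501, mean 0.86 ± 0.84) over the same 3 probes, while SMAD4 had a z of -0.73 there. In this window the SMAD2 immunoprecipitate differed by -0.77 from the other antibodies and its input by -1.68. With SMAD4 the peak z of Smad2 was 0.72, at percentile 15.9 of all genes and the lowest of the 6 with that antibody. With normexp background correction the SMAD1/5 peak z of Smad2 was 3.52. Its highest single probe with SMAD4, 2.86 at -5141 bp, had a surrogate input of 14.1 intensity units.

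Smad2 also held the lowest SMAD4 window of the group. Between 589 and 1064 bp inside the gene the 4 probes read -1.62, -1.45, -1.27 and -0.95 (mean -1.32 ± 0.29, z -2.52), at percentile 5.03 of all genes. These 4 values lie close together, whereas SMAD1/5 spread from -1.70 to 2.64 and SMAD2 from -0.59 to 1.04 over the same probes. The input was a surrogate at 777 and 887 bp with SMAD1/5 and at 777, 887 and 1064 bp with SMAD2. At 887 bp the immunoprecipitates of both were surrogates as well, so these spreads rest partly on spots near background. Set against these other antibodies, surrogates included, both SMAD4 channels were raised there, by 1.01 in the immunoprecipitate and 2.18 in the input.

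Smad3 was the lowest of the 6 genes with SMAD1/5 and SMAD2. Its peak z was 0.05 with SMAD1/5, at percentile 3.33 of all genes, and 0.55 with SMAD2, at percentile 13.9. With SMAD4 its peak z was 2.87, at percentile 84.5, in a window at 2672 bp, the inner edge of its tiling. The 3 probes had log2 ratios of 1.78, 2.22 and 0.99 (mean 1.66 ± 0.62), with immunoprecipitate intensities of 1698, 1309 and 916 against inputs of 521, 298 and 488. SMAD1/5 gave 0.78, -0.83 and -0.36 at these probes, a z of -0.05. SMAD2 gave -0.74 and 0.25 at the outer ones, the probe between them being left out for an outlier flag. The SMAD4 immunoprecipitate was 0.26 above the other antibodies there and the input differed by -1.53. With the mean input of the 3 antibodies the peak z of Smad3 with SMAD4 was 1.16. This was the lowest of 10 other settings, and the peak z stayed at 2 or more in 8 of them.

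Over the 18 highest windows, the immunoprecipitate was higher than the other antibodies' in 10 and the input lower in 14. The median difference was 0.05 for the immunoprecipitate and -0.74 for the input on the log2 scale. By antibody, the medians were 0.47 and -0.0034 with SMAD1/5, -0.09 and -0.77 with SMAD2, and 0.16 and -1.15 with SMAD4, immunoprecipitate first. In the 18 lowest windows the immunoprecipitate was lower than the other antibodies' in 8 and the input higher in 16. The windows were picked by their ratio, so these are descriptions of where the ratio lay, and the part of the input in the single values was not tested.

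**Figure D3:**
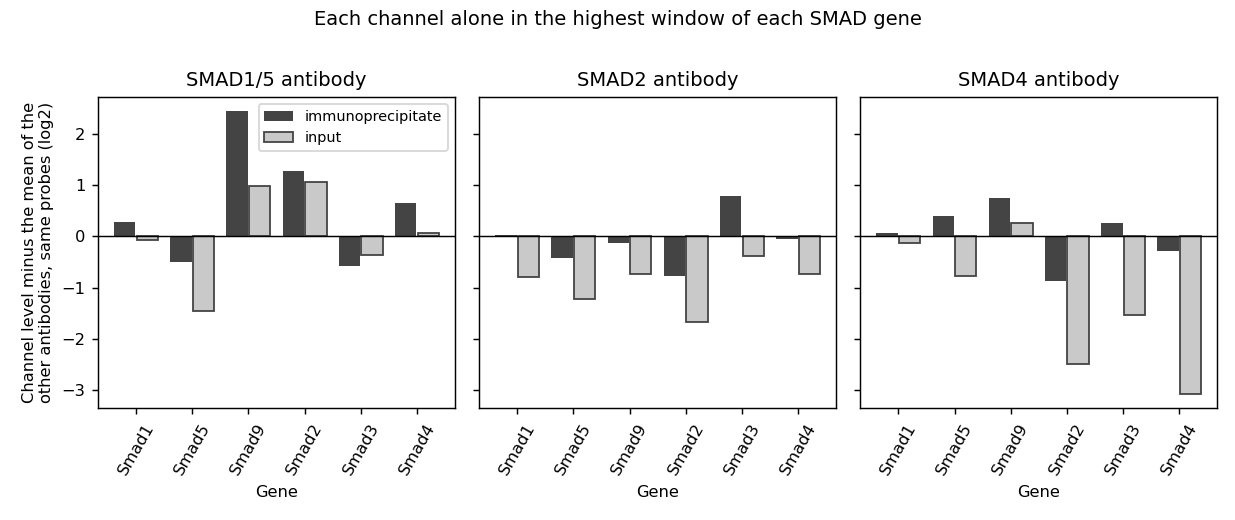
Immunoprecipitate (dark bars) and input (light bars) in the highest window of each SMAD gene, each as its log2 level minus the mean of the other antibodies at the same probes, in 1 panel per antibody. With SMAD4 the longest bars are the inputs of Smad4, at -3.07, and Smad2, at -2.49, and with SMAD1/5 the longest is the immunoprecipitate of Smad9, at 2.45.

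Signal at the start sites themselves, as the mean log2 ratio of probes within 500 bp, was below 0 for all 6 genes with SMAD1/5 in the processed signals and also below the median gene, which lay at -0.48, although 3 of the 6 were above 0 with normexp background correction and 2 with the mean input of the 3 antibodies. Below the median gene lay 5 of 6 with normexp, 4 of 6 with the mean input and 5 of 6 without the trend on the own input. In the BMP branch the means were -1.81 ± 0.79 at Smad1 (SD over 5 probes), -0.81 ± 1.80 at Smad5 (4 probes) and -0.89 ± 1.18 at Smad9 (5 probes). In the other branch they were -1.76 ± 0.35 at Smad2 (4 probes) and -1.61 ± 1.55 at Smad3 (6 probes), and Smad4 had -0.97 ± 1.80 (4 probes). Their percentiles among 15315 genes ran from 9.09 for Smad1 to 37.0 for Smad5. Over all 6 genes 3 of 28 start-site probes were above 0 and 0 above the 95th percentile of the array. The start-site probes of Smad1 ran from -2.90 to -0.82 and those of Smad2 from -2.27 to -1.53, while at Smad5 the probe at -294 bp read 1.87 with a surrogate input.

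With SMAD2 and SMAD4 the start-site means lay on both sides of 0 in the processed signals, but with the mean input of the 3 antibodies 0 of 6 were above 0 and 6 of 6 below the median gene with either antibody. For SMAD2 they were -0.32 ± 0.38 at Smad1, -0.56 ± 0.68 at Smad5, 0.01 ± 0.30 at Smad9, -0.36 ± 0.30 at Smad2, -0.07 ± 0.38 at Smad3 and 0.46 ± 0.54 at Smad4, each over 4 or 5 probes. For SMAD4 they were -0.21 ± 0.46 at Smad1, 0.26 ± 0.52 at Smad5, -0.66 ± 0.29 at Smad9, 0.47 ± 0.47 at Smad2, -0.43 ± 0.83 at Smad3 and 0.21 ± 1.46 at Smad4. The 5 means above 0 turned with the mean input, to -0.43 at Smad9 and -0.13 at Smad4 with SMAD2, and to -0.50 at Smad5, -1.11 at Smad2 and -0.33 at Smad4 with SMAD4. That mean includes the SMAD1/5 input, which averaged 1.53 over the start-site probes. The SMAD2 input averaged 0.22 there and the SMAD4 input -0.35, all as log2 levels against the array's median. The part of the SMAD1/5 input in these turns was not tested. Of 7 other settings, the mean input included, the SMAD2 mean was below 0 in 5 at Smad9 and 1 at Smad4. The SMAD4 mean was so in 1 at Smad5, 2 at Smad2 and 2 at Smad4. With normexp background correction 3 of 6 means were above 0 with SMAD2 and 4 of 6 with SMAD4. Below the median gene lay 2 of 6 with either antibody. Without the trend on the own input 1 of 6 was above 0 and 5 of 6 below the median gene with either antibody. In the processed signals all 12 values fall between the 5th and 95th percentiles of all genes, which were -0.78 and 0.79 with SMAD2 and -0.89 and 1.00 with SMAD4. Of these 12, the means more than 1 SD over probes from 0 were those of Smad9 with SMAD4 and of Smad2 with SMAD2, and that of Smad2 was 0.01 with normexp background correction. For Smad4 with SMAD4, the mean of 0.21 rests on the probe at -433 bp, and the other 3 probes read -0.32, -0.86 and -0.37.

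**Figure D4:**
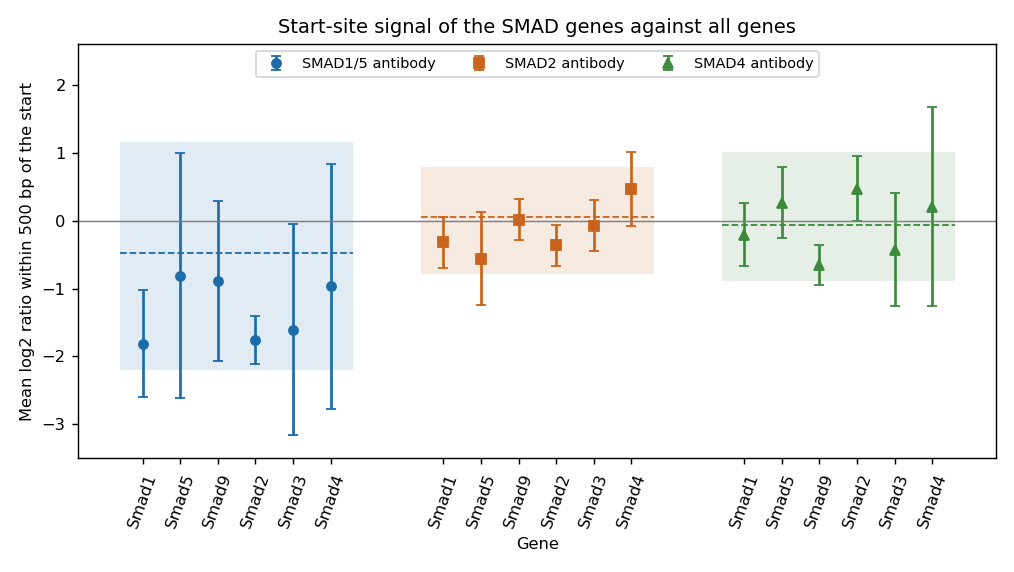
Mean log2 ratio within 500 bp of the start site of each SMAD gene (points, with bars of 1 SD over probes of 1 array) beside the 5th to 95th percentile of all genes (shaded) and their median (dashed). All 18 means lie inside the shaded range of their antibody in the processed signals.

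Each channel was also read alone at the start sites. All 18 immunoprecipitate levels, 6 genes by 3 antibodies, lay below the median gene, at percentiles from 5.39 to 48.1. They are not 18 independent values, as the 3 antibodies were read at the same probes. Over all probes the immunoprecipitates of a pair had r between 0.60 and 0.80. With SMAD4 the immunoprecipitate was at percentile 5.39 at Smad2, 8.72 at Smad3, 11.7 at Smad4, 22.5 at Smad5, 22.6 at Smad1 and 29.8 at Smad9. The inputs were below the median gene in 5 of 6 genes with SMAD4 and 5 of 6 with SMAD2, but above it in 5 of 6 with SMAD1/5. At Smad2 the SMAD4 immunoprecipitate at percentile 5.39 stood beside an input at 4.49, and the mean ratio there was 0.47. At Smad1 the SMAD1/5 immunoprecipitate lay at percentile 19.1 and the input at 68.0. Over the 28 start-site probes the SMAD1/5 immunoprecipitate averaged -0.33 and the input 1.53, both as log2 levels against the array's median. Base composition of these probes was not tested, as the files give no probe sequences.

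Across the member probes the ratios of the antibodies correlated with each other near 0. Pearson's r was -0.05 between SMAD1/5 and SMAD2 (186 probes), 0.04 between SMAD1/5 and SMAD4 (190) and -0.04 between SMAD2 and SMAD4 (186). The single channels did go together: r was 0.76 between the SMAD2 and SMAD4 immunoprecipitates, 0.51 between those of SMAD1/5 and SMAD2 and 0.50 between those of SMAD1/5 and SMAD4. The inputs gave 0.45, 0.48 and 0.32 in the same pairs. Between the ratio and its own immunoprecipitate r was 0.29 (SMAD1/5), 0.10 (SMAD2) and 0.03 (SMAD4). Between the ratio and its own input it was -0.60 (SMAD1/5), -0.47 (SMAD2) and -0.60 (SMAD4). These are descriptions across neighbouring probes that share arrays and cells and may share base composition, and a ratio holds its own input by construction. Over all probes of the arrays the ratios of a pair of antibodies had r between 0.03 and 0.06. At single probes of the SMAD genes, 20 of the 190 passed the 95th percentile with 1 antibody and 0 with 2. The share of all probes that pass with 2 antibodies was not computed. With 5% of all probes passing per antibody, few shared probes can be looked for among 190, so the 0 shows no lack of overlap.

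By antibody, 6 of 190 member probes (3.16%) were above the 95th percentile with SMAD1/5, 8 of 186 (4.30%) with SMAD2 and 6 of 190 (3.16%) with SMAD4, against 5% of all probes by construction. Below the 5th percentile lay 9 (4.74%), 13 (6.99%) and 9 (4.74%). A lowest window z of -2 or under was found in 2 of 6 genes with each antibody, against 32.2% of all genes with SMAD1/5, 30% with SMAD2 and 18.3% with SMAD4. The SMAD genes with such a window were Smad1 and Smad5 with SMAD1/5, Smad9 and Smad4 with SMAD2, and Smad9 and Smad2 with SMAD4. With 6 genes, 2 is near each of these backgrounds.

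In a wider list of 28 genes of the same pathway (inhibitory SMADs, receptors, cofactors and enzymes that act on SMADs), 25 were measured and 0 were called enriched or low with any antibody. A peak z of at least 2 was reached by 3 of 25 with SMAD1/5 (12%), 8 with SMAD2 (32%) and 10 with SMAD4 (40%), beside 5.94%, 18.4% and 40.1% of all genes. The list's median peak z was 1.44, 1.79 and 1.73, against 1.26, 1.35 and 1.74 for all genes. With SMAD1/5 the highest were Nedd4l, a ubiquitin ligase that acts on SMADs, at 2.33 and Acvr2a, a type II receptor for Activin and BMP, at 2.00. The lowest were Foxh1, the forkhead partner of SMAD2, at 0.70 and the receptor gene Acvr2b at 0.88. With SMAD2 the corepressor gene Ski reached 3.28 and the ubiquitin ligase gene Smurf1 3.19, while the coactivator gene Crebbp had 0.33 and the phosphatase gene Ppm1a 0.34. With SMAD4 the receptor genes Acvr2a and Acvrl1 had 3.25 and 2.67, and the co-receptor gene Eng and the receptor gene Acvr1 had 0.48 and 0.79.

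The genes nearest to a member over the 3 peak z values are given for description. How common such a profile is was not counted. Smad5, at 1.73, 2.03 and 2.20 with SMAD1/5, SMAD2 and SMAD4, was nearest to Ero1a (Euclidean distance 0.06), Cox4i1 (0.08) and Lpgat1 (0.09). Smad4, at 1.38, 1.35 and 3.32, was near to Prkcd (0.06) and Slc12a1 (0.06). Likeness was measured over 3 antibodies only, each in 1 replicate.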

How the data were processed

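ChIP-chip was measured on 6 arrays, 2 per antibody, assigned to antibodies from their titles. The deposited scanner files give processed intensities that Agilent Feature Extraction background-subtracted, detrended and dye-normalised, per the file headers. Version 9.1.3.1 with a copy number protocol was used for SMAD1/5 and SMAD2 and version 9.5.3.1 with a ChIP protocol for SMAD4, so extraction and antibody cannot be told apart for SMAD4. Spot flags, deposited in other columns of the same files, are 0 or 1, per the file headers. The authors' log2 values are in the deposited value tables and the submitters' processing notes name limma for them without steps. Their scale and centring are unknown, with medians of 0.08 and -0.01 (SMAD1/5), 0.05 and 0.04 (SMAD2) and -0.0047 and -0.0023 (SMAD4), and they were used as an alternative only. Their r with the scanner ratio, from 0.74 to 0.95, gives immunoprecipitate over input as their direction.

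Spots with an outlier flag were left out, and each array's log2 of processed red over green was set to a median of 0, without loess. Windows took probes within 500 bp, at least 3 of them, in Python 3.11.15 with pandas 2.3.3. limma 3.58.1 gave the normexp (offset 50) and loess alternatives. The window steps were checked on simulated data. No dye was swapped, so a dye effect cannot be told apart from enrichment. Genes were named through RefSeq accessions in the GRCm38.p6 gene table (16111 of 17095 names). The genome build behind the array's positions was not given in the sources used here, and no sequence of Smad2 or Smad4 was used. Members, lists and heights were chosen with earlier results of these data known. The named genes are the 6 members, the 2 highest and 2 lowest of the pathway list per antibody, any of that list called, and the 3 genes nearest in peak z to each antibody's highest member. Some genes that this rule names are not reported here.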

Additional observations from a re-analysis of the deposited data

How the results depend on the processing

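The count of SMAD genes called enriched stayed at 0 for each antibody under all 9 settings tried in place of the main one. The count at a peak z of at least 2 moved. With SMAD1/5 it was 0 in the processed signals, 3 with normexp (Smad1 at 2.26, Smad2 at 3.52 and Smad4 at 2.28), and 1 each with loess, with the mean input of the 3 antibodies and with probes within 1000 bp. The share of all genes at that height moved too, from 5.94% to 43.5% with normexp. It was 16.4% with loess, 19.5% with the mean input and 9.45% with probes within 1000 bp. With SMAD2 the single gene, Smad5, gave way to 0 with normexp, the authors' values, loess, the mean input, the trend on the own input removed, and probes within 1000 bp. In these settings, in that order, 13.7%, 9.20%, 11.1%, 10.7%, 5.40% and 14.5% of all genes reached the height, against 18.4% in the processed signals. With SMAD4 it was 3, against 2 with normexp, the authors' values, loess, the trend on the own input removed and probes within 250 bp, and 1 with the mean input and with probes within 1000 bp. The peak z kept its sign and its side of the threshold of 4 in 178 of 180 repeats, and Smad3 with SMAD1/5 turned to -0.14 without the trend on the own input and to -0.53 without the window's highest probe. This count is coarse and does not measure how far a peak z moved. It holds as kept Smad2 with SMAD1/5, at 3.52 with normexp against 0.93 in the processed signals. Smad4 with SMAD4, at 0.94 with the mean input against 3.32, is held as kept too. Start-site means moved by under 1 SD over probes in 113 of 126 repeats. That SD is as wide as 1.80, so a change of sign can pass as unmoved. Smad4 with SMAD1/5 did so, at -0.97 in the processed signals and 0.40 with normexp. The count of all enriched genes ranged more widely, from 0 to 861 with SMAD1/5 (861 with normexp), 2 to 18 with SMAD2 and 2 to 416 with SMAD4, with 2 each for the mean input and for the trend removed. The cause was not tested. A z of 4 stood at 24.4-fold and 18.0-fold on the SMAD1/5 arrays, and lower signal was not callable there. No paired analysis was possible because each antibody has 1 sample per array. With 1 replicate there was none to leave out.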
